A study of Mus musculus with 8 samples.

Results

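The sequences described here are those that the deposited list annotates to NM_029911, the RefSeq accession of Kcnk10, which encodes a background (leak) potassium channel. They number 16856 of the 6246223 distinct sequences in the list (0.270%), of which 14102 (83.7%) are 24 to 33 nt long, the main window used below. The accession was chosen by the number of distinct sequences, the highest of all mRNA accessions, so that number is a description and not a finding. The next accession has 6407 sequences of 24 to 33 nt. The list pools small RNA of 8 testis libraries, 1 for each group. For tdrd6-KO, testes of heterozygous (hetero) and homozygous (homo) mice were used at 18 days post partum, at 25 days post partum and at the age of 6 weeks. For tdrd1-KO, the same genotypes were used as embryos at 18.5 days post coitum. The RNA was size selected to 19 to 33 nt, while the sequences of the accession run from 15 to 36 nt. The labels name no strain, no allele and no wild-type group, and whole testes hold somatic as well as germ cells. No sequence in the list is tied to a library or has a read number, so genotypes and ages could not be compared. A value below counts different sequences, not molecules or reads. Intervals are exact 95% binomial (Clopper-Pearson) intervals, cover counting error only and treat overlapping sequences as separate. No test was made.

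Piwi-interacting RNAs (piRNAs) are the small RNAs that guide Piwi proteins in animal germ cells. In the meiotic mouse testis most of them are cut from long single-stranded transcripts of particular genomic loci, called piRNA clusters. Their 5' end is usually a uridine, written T in the list, and their 3' end is trimmed back until the Piwi protein protects it. MIWI holds longer piRNAs than MILI does. TDRD1 and TDRD6 are Tudor-domain proteins that bind Piwi proteins through methylated arginines.

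The ends of these RNAs are best seen in the sequences themselves. Of all 5' ends that could be placed on the genome, the one listed first by number of sequences and then by position lies at chr12:98434205 (mouse build GRCm38, plus strand), opposite the 3' untranslated region of Kcnk10. It carried all 10 lengths from 24 to 33 nt, so that only the 3' end moved, by single bases. The lengths up to 30 nt are shown, with the first base in capitals:
length 24: Taaaacgtgtgtgctctgatcagt
length 25: Taaaacgtgtgtgctctgatcagtt
length 26: Taaaacgtgtgtgctctgatcagttt
length 27: Taaaacgtgtgtgctctgatcagtttc
length 28: Taaaacgtgtgtgctctgatcagtttcc
length 29: Taaaacgtgtgtgctctgatcagtttcca
length 30: Taaaacgtgtgtgctctgatcagtttccaa

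The next 5' ends on the plus strand by the same order also had all 10 lengths, and both lie in a part of the locus with many more sequences. They are shown by their 27 nt form, at chr12:98446430-98446456 and chr12:98446465-98446491:
end 2: Tgagcttcccgagccttcacgtttcct
end 3: Tgataggtgatagatctgaattacttg

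On the minus strand, the strand of the Kcnk10 mRNA, no 5' end that could be placed had more than 3 sequences. The first by number lies at chr12:98435025-98435049 in its 25 nt form, within the coding part of the last exon. The next lies at chr12:98434656-98434682 in its 27 nt form, within the 3' untranslated region:
first minus-strand end: Aaagatctcaaaaagaccttacccg
second minus-strand end: Ttacatagcattgaagaagatatttca

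Nearly all sequences that could be placed lay opposite the gene whose name they carry. Of the 14102 sequences, 5784 (41.02%, interval 40.2 to 41.8) matched an annotated exon at the locus exactly and over their whole length, and each of them at 1 position. Of these, 5753 (99.5%, 99.2 to 99.6) lay on the plus strand and 31 (0.536%, 0.364 to 0.760) on the minus strand, while Kcnk10 is transcribed from the minus strand (chr12:98429437-98578310). Plus-strand sequences were placed from 98433993 to 98448333, a stretch of 14341 nt at the 3' end of a gene of 148874 nt. The upper edge falls at the end of 5330409N07Rik (98448334), a searched locus inside Kcnk10, and intron sequence beyond it was not searched. Below the lower edge, same-strand sequences without the accession continued to 98429437. Both edges thus reflect what was searched or annotated and do not give the extent of a cluster. Sequences of 15 to 23 nt had the same strand, with 1212 of 1219 placed ones (99.4%) on the plus strand.

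Most placed sequences fell in 1 intron. The locus 5330409N07Rik (chr12:98444817-98448334), a single-exon entry of provisional class that GENCODE places on the minus strand inside Kcnk10, had 4647 plus-strand sequences and 8 on the minus strand. This is 80.3% of the placed sequences and 1321 per kb. No intron sequence was searched other than this locus and the exons of Gm40893, another entry inside Kcnk10, so the share depends on that choice. The antisense strand of the Kcnk10 exons held the other placed plus-strand sequences. The last exon (98429437 to 98435427) had 882 plus-strand sequences and 18 on the minus strand. The exon before it (98436192 to 98436334) had 51 and 0, and the one before that (98440592 to 98440778) had 173 and 1. By length these exons had 147, 357 and 925 plus-strand sequences per kb.

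The last exon was not filled evenly. Its coding part (98434810 to 98435427) had 437 plus-strand sequences, or 707 per kb. The 3' untranslated region of the shorter Kcnk10 isoform (98433830 to 98434809) had 445, or 454 per kb. The 4393 nt by which the longer isoform extends further had none that carried the accession, since sequences placed below 98433991 bear other annotations or none. From the 3' untranslated region to the exon at 98440592, density was thus higher at each step except in the small exon at 98436192. The entry 5330409N07Rik had 1321 per kb as a whole, but its first 800 nt, nearest to these exons, had 622.5.

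Beyond 5330409N07Rik no exon had a plus-strand sequence of the accession. The next exon at 98456719 to 98456905 had 0, which allows up to 16.04 per kb (3 counts) by counting error alone. The other 8 Kcnk10 exon regions upstream of it and the 3 exons of Gm40893 (98523844 to 98526583, plus strand) had 0 as well. The 4 sequences found in those exons were on the minus strand, 2 in the exon at 98518498 to 98518832, 1 at 98574157 to 98574712 and 1 at 98577786 to 98578310.

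**Figure D1:**
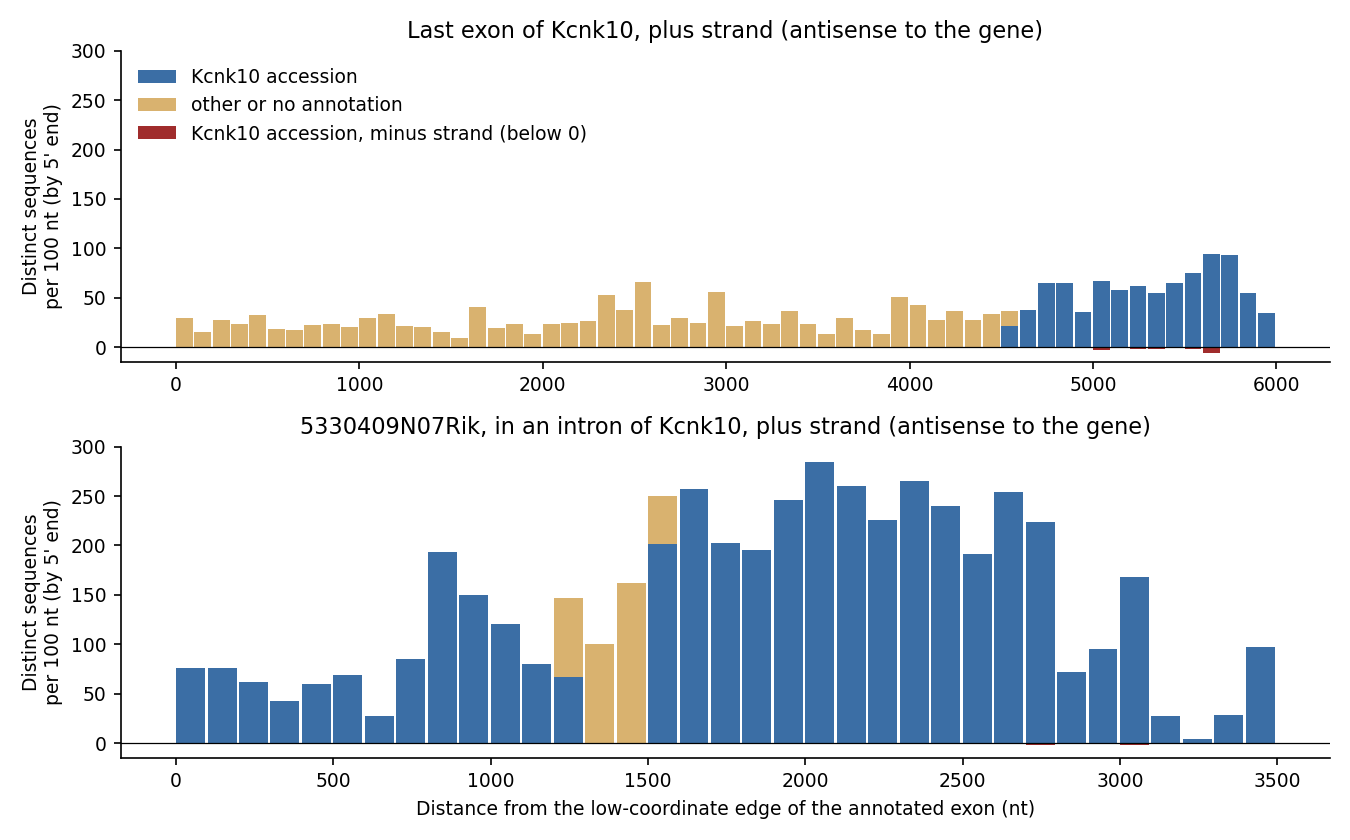
Distinct sequences of 24 to 33 nt by the position of their 5' end, per 100 nt, along the last exon of Kcnk10 (top) and along 5330409N07Rik (bottom); the horizontal axis is the distance in nt from the low-coordinate edge. Blue bars are plus-strand sequences of the Kcnk10 accession, and red bars below 0 minus-strand sequences of the accession. Tan bars are plus-strand sequences with another annotation or none, counted only where they mapped to 1 position. The blue bars reach 285 in 5330409N07Rik and 94 in the last exon.

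Within 5330409N07Rik the number of sequences per 100 nt ranged from 0 to 285, with a median of 97 over 35 full bins. The 5 fullest bins held 28.4% of them, and 2 bins had none. In the stretch from 1600 to 2800 nt (98446417 to 98447616) there were 2372 sequences per kb. The first 800 nt had 622.5 per kb, the stretch from 800 to 1200 nt 1358 and the last part from 2800 nt 684. These stretches were drawn after the profile had been seen and leave out 1200 to 1600 nt, where the 2 empty bins lie. In the densest one, 89.5% (86.2 to 92.2) of all T positions were the 5' end of at least 1 sequence, against 62.1% (55.6 to 68.4) in the first 800 nt. T was first in 65.6% (63.8 to 67.3) of the sequences of that stretch, where T makes up 36.3% of the bases. Beyond 2800 nt T makes up 19.5% of the bases and was first in 74.5% (70.4 to 78.3).

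The remaining 8318 sequences (59.0%) matched none of these exons, and introns, splice junctions and flanking sequence were not searched. The share with T as first base was 72.4% (71.5 to 73.4), and 68.6% (67.3 to 69.8) among the placed sequences, intervals that did not overlap. Lengths of 29 to 31 nt made up 37.6% (36.6 to 38.7) against 39.1% (37.9 to 40.4), intervals that did. To see their strands without a genome, members were joined into contigs wherever they shared 17 nt stretches. The 84 contigs with at least 20 sequences held 13202 of the 14102, and 99.7% (99.6 to 99.8) ran in the majority direction of their contig. In 63 of the 84 every sequence ran the same way, and the lowest share was 95.7%. The 64 contigs without any placed sequence, 8759 nt in all, held 7404 sequences, of which 99.8% (99.6 to 99.9) ran one way. Their direction on the chromosome could not be read. Where a contig did contain placed sequences, 132 of its 133 unplaced ones were on the plus strand. Members of all lengths held 15845 different 17 nt stretches, counting the strands together.

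The same one-sidedness was found in the other accessions with many sequences. With contigs built in the same way from sequences of 24 to 33 nt, the majority direction held 99.7% in Kcnk10, 99.6% in NM_001034902 and 99.85% (99.68 to 99.95) in Prkca, and 98.1% (97.5 to 98.6) in Cbx7. In Asb1, Ddx19b, Abl2, Arhgap20 and Cbx5 it was 100%, and in Tbl2 it was 99.96%.

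The length distribution had a pair of peaks. Numbers rose to 1968 sequences at 27 nt, fell to 1769 at 28 nt and rose again to 2085 at 30 nt, the most frequent length. Sequences of 26 to 28 nt made up 39.7% (38.9 to 40.5) of the window and those of 29 to 31 nt 38.2% (37.4 to 39.1). In the mRNA sequences of all other accessions these shares were 59.9% and 20.4%, and 26 nt was the most frequent length. Other accessions with many sequences lay between or beyond. The share of 29 to 31 nt was 37.3% in NM_001034902, 37.5% in Asb1, 36.6% in Tbl2, 33.4% in Prkca, 33.6% in Ddx19b, 30.4% in Cbx7, 28.5% in Cbx5, 20.7% in Abl2 and 50.9% in Arhgap20. The intervals of Kcnk10, NM_001034902, Asb1 and Tbl2 overlapped. Which libraries supplied each list is not recorded, so locus and library cannot be told apart here.

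**Figure D2:**
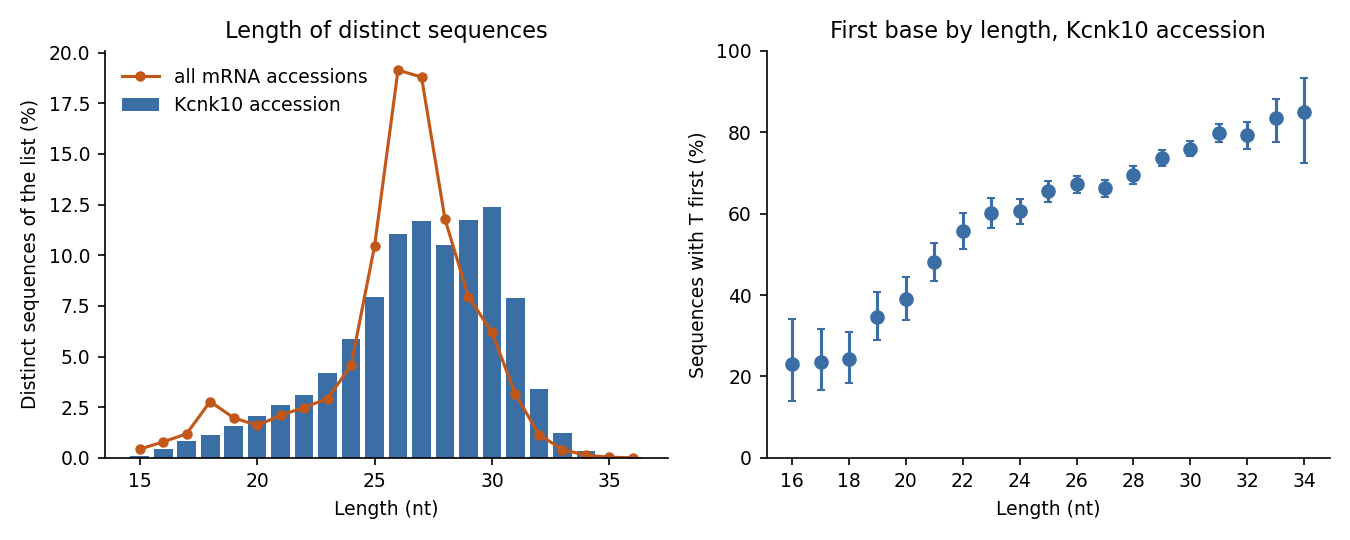
Left, percent of distinct sequences at each length (nt) among all lengths, for the Kcnk10 accession (bars) and all mRNA accessions (line); right, percent of Kcnk10 sequences with T first at each length with at least 50 sequences, with exact 95% intervals. The bars peak at 27 and 30 nt, and T first rises from 24.2% at 18 nt to 83.4% at 33 nt.

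Longer sequences began with T more often. T was first in 67.2% (66.1 to 68.3) of sequences of 25 to 28 nt and in 76.0% (74.9 to 77.2) of those of 29 to 31 nt. In the whole window it was first in 70.9% (70.1 to 71.6), A in 11.4%, C in 10.3% and G in 7.45%. After the first base, the share of A was highest at position 5 (34.3%) and position 2 (32.5%), against 25.6% to 29.9% at the other positions from 3 to 24. A at position 10, the mark of a piRNA made by slicing of an opposite-strand transcript, was found in 26.1% (25.4 to 26.8), beside 26.6% at position 9 and 26.9% at position 11, with overlapping intervals. The share was 25.8% in the mRNA sequences of the other accessions. For T as first base, the 9 comparison lists ran from 63.0% in NM_001034902 to 83.2% in Cbx5, a range that holds the Kcnk10 value.

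**Figure D3:**
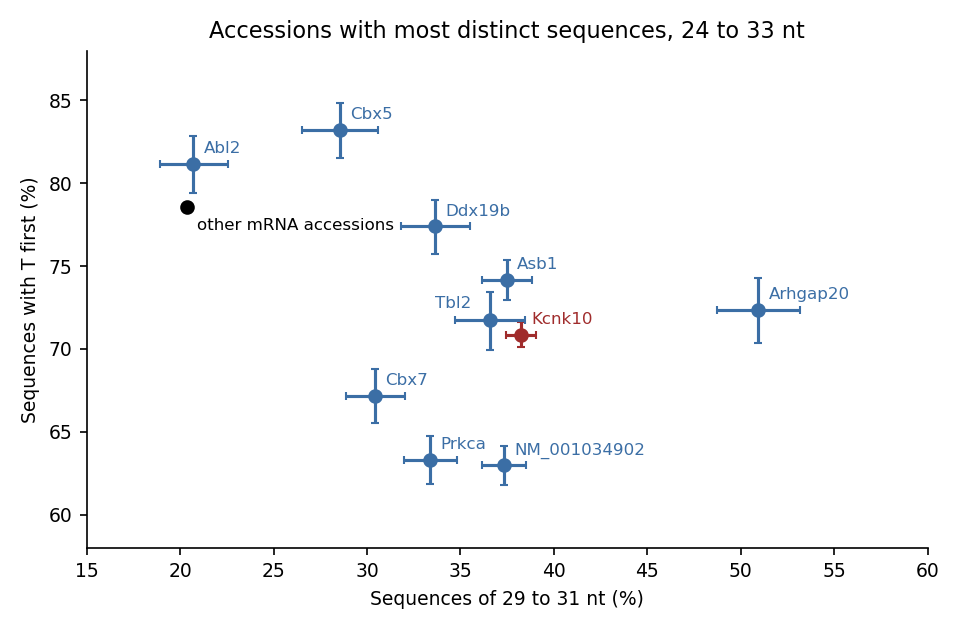
Share of sequences of 29 to 31 nt (horizontal, percent) and share with T first (vertical, percent) among sequences of 24 to 33 nt, for the 10 accessions with most distinct sequences and all mRNA accessions other than Kcnk10 (black); bars are exact 95% intervals. Kcnk10 (red) lies at 38.2% and 70.9%, to the right of and below the point for the other mRNA accessions at 20.4% and 78.6%. The blue points have T first in 63.0% to 83.2%.

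Kcnk10 sequences often shared a 5' end and differed at the 3' end. A 5' end is here the first 20 nt, and the 14102 sequences had 5486 of them, 2.57 sequences each. Of these, 2473 (45.1%) had 1 sequence and 954 (17.4%) had at least 5, and these 954 carried 43.0% of the sequences. There were 7442 3' ends, 1.90 sequences each, and only 5.33% of them had at least 5. All 10 lengths were present at 20 of the 5' ends, 18 of which began with T. Among the 954 5' ends with at least 5 sequences, 30 nt was present at 88.5% (86.3 to 90.4), 29 nt at 86.2% and 27 nt at 82.7%, against 79.7% at 28 nt and 14.99% at 33 nt. In 409 of the 954 the lengths formed a run without a gap. Sharing of 5' ends was not particular to Kcnk10. NM_001034902 had 3.16 sequences per 5' end, Prkca 2.74, Tbl2 2.69 and Asb1 2.61, and the rest of the 9 comparison lists 1.67 to 2.45. In these 9 lists 3.36% to 27.1% of the 5' ends had at least 5 sequences. All mRNA sequences other than those of Kcnk10 had 1.19 per 5' end.

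Short and long sequences often shared a 5' end. Of 3302 5' ends with a sequence of 29 to 31 nt, 2092 (63.4%, 61.7 to 65.0) also had one of 25 to 28 nt, and these were 52.6% of the 3975 5' ends with the shorter class. T was first in 78.3% (76.4 to 80.0) of the 5' ends with both classes, in 55.9% (53.0 to 58.7) of those with the longer class but not the shorter and in 36.7% (34.5 to 38.9) of those with the shorter but not the longer.

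The share of T rose with the number of 3' variants. It was 38.5% (36.5 to 40.4) for 5' ends with 1 sequence, 62.5% (60.3 to 64.5) for those with 2 to 4 and 88.5% (86.3 to 90.4) for those with at least 5. The share was also higher at 5' ends with at least 5 sequences in each of the 9 lists with which Kcnk10 was compared, by differing amounts. In Prkca the shares for 1 and for at least 5 sequences were 33.9% and 85.6%, in Cbx7 39.7% and 88.9%, in Asb1 37.2% and 93.4%, and in NM_001034902 20.9% and 81.4%. In Tbl2 they were 31.96% and 91.85%, in Ddx19b 41.5% and 96.1%, and in Arhgap20 48.65% and 87.2%. In Abl2 they were 61.7% and 100%, and in Cbx5 66.1% and 100%, with only 39 and 42 5' ends of at least 5 sequences.

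**Figure D4:**
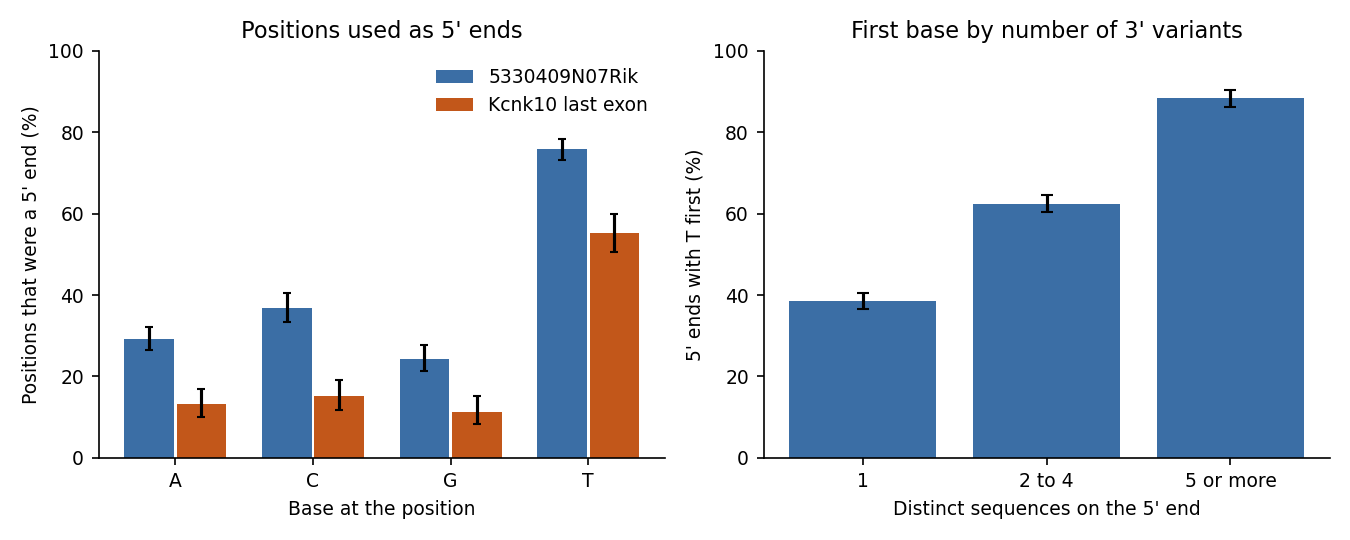
Left, percent of positions with each base on the plus strand of 5330409N07Rik (blue) and of the Kcnk10 last exon from the end of the shorter isoform (orange) that were the 5' end of at least 1 sequence; right, percent of Kcnk10 5' ends that begin with T, by the number of distinct sequences on the 5' end. Bars carry exact 95% intervals, and T stands at 75.8% in 5330409N07Rik and 55.3% in the last exon, above each other base.

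Seen from the genome, T positions were used far more often than others. On the plus strand of 5330409N07Rik, 781 of 1030 T positions (75.8%, 73.1 to 78.4) were a 5' end. The shares were 36.9% (33.3 to 40.6) of C, 29.3% (26.5 to 32.2) of A and 24.4% (21.3 to 27.6) of G positions. A used T position had 4.02 sequences and a used position of another base 1.95 to 2.13. T made up 29.5% of the positions and 67.6% of the sequences. In the part of the last exon shared by both isoforms, 55.3% (50.5 to 59.96) of T positions and 11.3% to 15.2% of the others were used. T thus stood above the other bases there as well, with fewer sequences, while the intervals of C, A and G overlapped.

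Neighbouring bases went with how often a T was used. In 5330409N07Rik, 84.5% (78.5 to 89.4) of T positions followed by A were used, with 4.44 sequences per T position, against 71.2% (66.4 to 75.7) of those followed by T, with 2.53. T positions preceded by G had 1.70 sequences each and were used in 65.7% (58.2 to 72.7), against 84.7% (79.4 to 89.0) for those preceded by C. An A as the fifth base came with 3.55 sequences per T position and a G there with 2.61. In the last exon G also had the lowest value among preceding bases, 1.09 per T position, and A at position 5 the highest for that position, 2.35. Among second bases there, G had 2.27, A 1.88 and T 0.926. Neighbouring positions overlap and share sequence, so these values describe 2 stretches of RNA only.

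The parts of the locus differed in length class. Sequences of 29 to 31 nt made up 41.5% (40.1 to 43.0) in 5330409N07Rik and 28.5% (25.5 to 31.6) in the last exon. Within 5330409N07Rik the share was 50.6% (46.1 to 55.1) in the first 800 nt, 45.1% (40.9 to 49.4) from 800 to 1200 nt, 40.3% (38.5 to 42.2) from 1600 to 2800 nt and 37.9% (33.6 to 42.3) beyond. Density rose and fell again over these 4 stretches, while the share of long sequences was lower in each than in the one before it. The stretches leave out 1200 to 1600 nt. There, 27 of 67 sequences in the bin from 1200 nt and 72 of 202 in the bin from 1500 nt were 29 to 31 nt long. A steady decline along the whole entry is therefore not shown. Over the 28 bins of 100 nt with at least 50 sequences, the share of 29 to 31 nt ranged from 29.2% to 60%. The intervals of neighbouring stretches overlapped, and those of the first and the last did not. T first was 67.6% (66.2 to 69.0) in 5330409N07Rik, 78.0% (75.1 to 80.7) in the last exon, 68.6% (54.1 to 80.9) in the exon at 98436192 and 50.3% (42.6 to 57.97) in the exon at 98440592.

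Possible opposite-strand partners were rare. When 10 bases were compared at every overlap, 130 of the 5486 5' ends (2.37%, 1.98 to 2.81) could pair with a 5' end of the set at an overlap of 10 nt. That is the spacing left by reciprocal slicing. This count rests on 10 matching bases and did not check strand or position. An end that could pair with itself was not left out. At overlaps of 11 to 20 nt the mean was 1.80% (SD 0.151 over 10 overlaps) and the highest 2.10%. The value at 10 nt was the highest of all, but its interval overlapped those of all the others except 19 nt. Among the placed sequences, 15 of 26 minus-strand 5' ends had a plus-strand 5' end at an overlap of 10 nt, against 7 to 14 at the other overlaps from 1 to 20 nt (mean 9.95).

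The 3 such pairs with most sequences lie in 5330409N07Rik and are shown with the 10 shared bases of each strand in capitals. The pairs cover 98447882 to 98447927, 98447089 to 98447129 and 98447510 to 98447556. In each the plus-strand 5' end had 9 sequences and the minus-strand end 2, 1 and 1.
pair 1, plus: TGAGTCCTTTtatataccgtgggctat
pair 1, minus: AAAGGACTCAtaattaggttttgaaaaga
pair 2, plus: TTGCTGATACatagcctcactatgcct
pair 2, minus: GTATCAGCAAggagaacgtgagtc
pair 3, plus: TAATAGCAGAtcaacacttttgatggg
pair 3, minus: TCTGCTATTAggacacatccaaagtcaaca

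The distance from a 3' end to the next 5' end was counted on the plus strand. In 5330409N07Rik, 52.5% (50.2 to 54.7) of 1927 3' ends were followed by a 5' end at a distance of 1 nt, against a mean of 53.6% at distances of 2 to 20 nt (52.05% to 54.7%). In the last exon the values were 29.5% (25.8 to 33.3) and 27.4% (24.6% to 29.97%). The base after the 3' end was T in 31.5% (29.4 to 33.6) of the 3' ends in 5330409N07Rik, against 31.6% to 33.5% at the following bases up to the tenth. The last base itself was T in 34.5% (32.4 to 36.7). 5' ends stood at 43.5% of all positions of this stretch and 3' ends of piRNAs are trimmed, so these values do not bear on whether successive piRNAs are cut next to each other.

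**Figure D5:**
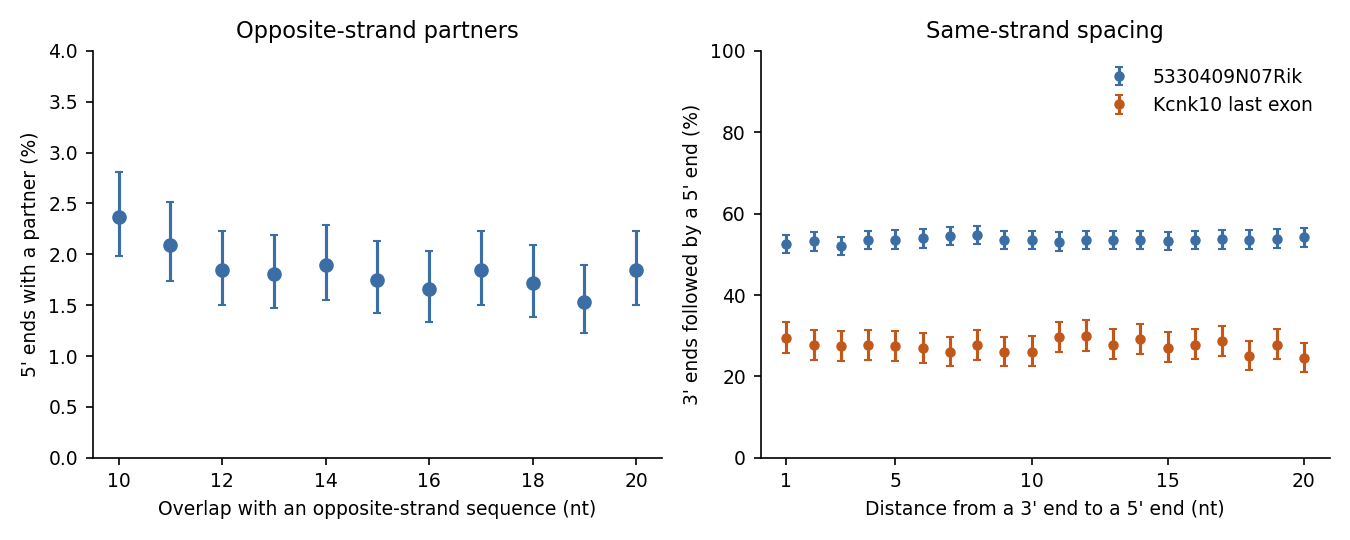
Left, percent of Kcnk10 5' ends that could pair over 10 bases with a 5' end of the set at overlaps of 10 to 20 nt. Strand and position were not checked, and pairing of an end with itself was not left out. Right, percent of plus-strand 3' ends followed by a 5' end at distances of 1 to 20 nt in 5330409N07Rik (blue) and the last exon of Kcnk10 (orange). Points carry exact 95% intervals; the left panel is highest at 10 nt with 2.37%, and the right panel has means of 53.6% and 27.4% at distances of 2 to 20 nt.

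Sequences shorter than piRNAs mostly lay inside longer ones. There were 2280 of 19 to 23 nt and 412 of 15 to 18 nt, and 97.5% and 98.1% of them were contained in a member of 24 to 33 nt. Of those of 19 to 23 nt, 70.2% (68.3 to 72.1) had the same start as a longer member and 81.8% (80.1 to 83.3) the same end. T was first in 65.0% (62.6 to 67.3) of those with a shared start and in 16.8% (14.0 to 19.8) of the others. A shared start is by definition a 5' end of a longer member, and T was first in 56.2% of those 5' ends. The split by T is therefore not independent of how the groups were formed. Members also lay close together, with 5' ends at 43.5% of the positions in 5330409N07Rik. No background was computed for containment, shared starts or shared ends. For 15 to 18 nt the shared end was found in 89.3% (85.9 to 92.1) and the shared start in 51.7% (46.8 to 56.6). Another 62 sequences were 34 to 36 nt long, and 85.5% (74.2 to 93.1) of them began with T.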

How the data were processed

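The authors deposited 1 table for the whole series. Per the file headers it gives a distinct sequence, its map number and a final annotation, and none of its 3 columns is tied to a library. The map number is another kind of value than a read count: it states at how many positions a sequence mapped. Per the labels' protocols, RNA was size selected to 19 to 33 nt. Aligner, genome build and annotation source are not given in the sources used here, and depth is unknown. Of the members, 16836 (99.9%) mapped to 1 position.

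Members were matched exactly to both strands of GENCODE M21 exons (GRCm38, this work's choice) of Kcnk10, 5330409N07Rik and Gm40893 with Python 3.11.15 and SciPy 1.17.1. Contigs joined 17 nt words of all members. A 5' end is the first 20 nt. The design fixed the named items: Kcnk10, the other 9 accessions with most sequences of 24 to 33 nt, coding genes within 500 kb of the placed span, overlapping noncoding genes, the 3 leading 5' ends on each strand and the 3 leading pairs. Functions were tested on simulated data. The members, lists and rules were chosen with earlier results of these data known. No libraries could be grouped or compared. Alternatives were a 25 to 32 nt window, map number 1 and other definitions of a 5' end.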

Additional observations from a re-analysis of the deposited data

Results flagged for a closer look

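Sequences of the list with another annotation or none lay on the same strand of the same exons and were outside the measurements above. Only those of 24 to 33 nt that mapped to 1 position were looked for, so repeat sequences with more positions are not counted here. On the plus strand of the last Kcnk10 exon there were 1164 unannotated sequences of 24 to 33 nt that mapped to 1 position, from 98429437 to 98433988, directly below the first base of the accession at 98433991. T was first in 78.4% (75.9 to 80.7) of them and 30.7% (28.03 to 33.4) were 29 to 31 nt long. On the minus strand of the same stretch there were 17. Together with the other annotations they gave 272.5 sequences per kb on the 4393 nt by which the longer isoform extends. Another 82 plus-strand sequences there were annotated to the repeat MIRb (98432301 to 98432510), with T first in 86.6% (77.3 to 93.1). In 5330409N07Rik, 390 plus-strand sequences annotated to the repeat RMER15 (98446036 to 98446367) included all those placed in the 2 bins of 100 nt where the accession had none. T was first in 52.3% (47.2 to 57.4) of these and 40.8% (35.8 to 45.8) were 29 to 31 nt long. No value belongs to a single library, so single libraries and differences between groups could not be looked at.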

How the results depend on the processing

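No paired analysis was possible because no value is tied to a library. With a window of 25 to 32 nt the share of 29 to 31 nt was 41.8% and there were 2.46 sequences per 5' end. Placed sequences alone had 2.85 per 5' end, by position and, chosen after seeing the data, also by the first 20 nt. With each 5' end counted once, also chosen afterwards, T was first in 56.2% and A at position 10 in 27.05%. By contigs, likewise added, 99.7% (99.68%) ran in the majority direction. The cause of these shifts was not tested. The other alternatives moved values by less than their intervals, and the number of sequences was 12904 at 25 to 32 nt and 16856 at all lengths. Counting distinct sequences gives weight to 5' ends with many 3' variants and hides how often each was read. Sequences were matched to exons of 3 genes alone, and 59.0% of the members have no position.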

Other observations

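The protein-coding genes around the locus had few piRNA-length sequences on their spliced transcripts, whatever the annotation. Over its exons Kcnk10 had 2355 antisense and 42 sense sequences of 24 to 33 nt that mapped to 1 position. Galc, which encodes a lysosomal galactosidase and lies on the same strand at 98202294 to 98259459, had 92 sense and 3 antisense. Eml5 had 15 and 4, Ptpn21, which encodes a tyrosine phosphatase, 13 and 3, and Zc3h14, which encodes a zinc finger protein that binds poly(A), 8 and 1. Spata7 had 3 sense sequences and 0 antisense. Gpr65, which encodes a proton-sensing receptor, and Ttc8 had 0 sense and 1 antisense each. Of these genes Kcnk10 alone had more than 4 antisense sequences.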
